A study of Mus musculus with 28 samples.

Results

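The data described here were the 12 translating ribosome affinity purification (TRAP) libraries of the study, out of 28 samples in all, made from the cerebral cortex of 6 mice at postnatal day 24. They were chosen because all 12 stood in a single table of gene counts, so that the effect of the knockout could be measured in the purified and the unpurified RNA of the same animals and the difference between those effects could be tested. That difference is called the interaction here, which is the log2 difference of cKO minus Ctrl in the immunoprecipitate (IP), minus the log2 difference of cKO minus Ctrl in the input homogenate (Input). A positive interaction meant a higher relative level in cKO astrocyte ribosomes than the change in whole cortex gave, and a negative one the reverse. It tested whether the change in ribosome-bound RNA of astrocytes differed from the change in whole tissue. Input also holds the RNA of astrocytes. A change in astrocytes alone can thus appear in both fractions and give no interaction.

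Conditional knockout mice (cKO) carried a conditional allele, flanked by loxP sites, on both chromosome copies, and the mGFAP-Cre transgene, in which a mouse Gfap promoter drives Cre recombinase mainly in astrocytes. The study describes control mice (Ctrl) as littermates of the same sex with 1 or both copies of that allele. In both genotypes the ribosomal protein Rpl10a fused to EGFP was switched on by Cre, so the Ctrl mice of this experiment presumably carried mGFAP-Cre too. The study's general definition of its controls is without Cre, and the labels do not state it. With mGFAP-Cre, both copies would make the cKO genotype, so such controls could carry at most 1. If they carried 1, each comparison would be with heterozygous deletion, which the labels do not settle. The mice had been crossed back to C57BL/6J, have no treatment in their labels, and were processed singly, both cortices of each animal together, with 3 Ctrl and 3 cKO mice, each giving an IP and an Input library. The tag follows every cell in which Cre was ever active, and the Gfap promoter that drives Cre belongs to a gene whose own level differed between genotypes.

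Astrocytes take up glutamate and potassium released by neurons, make glutamine and supply amino acids to their neighbours. Astrocytes that are stressed or injured raise intermediate filaments such as Gfap and Vim, a state called reactive astrocytosis. In TRAP, ribosomes carrying the tag are captured with antibodies to EGFP, so the IP holds transcripts bound to ribosomes of the tagged cells, while the Input holds RNA of all cells.

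Levels are given as CPM, the read count relative to the scaled size of the library, in the order of mice 1, 2 and 3. All adjusted p-values come from edgeR's quasi-likelihood test with Benjamini-Hochberg adjustment over all genes tested. As 1 mouse gave each pair of libraries, the interaction was also tested with the mouse as a block, and the adjusted p of that fit is given beside the other.

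Among marker lists of 5 cell classes, the IP was enriched for those of astrocytes. Of the 25768 genes tested, 9249 were higher and 9411 lower in IP than in Input over both genotypes. All 16 astrocyte markers were higher, with a median log2 ratio of 3.02. All 14 neuron markers and 13 of 14 microglia markers were lower in IP, with medians of -1.78 and -1.70. Of 12 oligodendrocyte markers 9 were lower and 1 higher, and of 14 endothelial and pericyte markers 11 were lower and 1 higher. Transcripts of other cells were reduced in IP but not absent, since every marker of these lists had counts in IP.

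Total counts ran from 18433087 to 27242445 per library, so that 3 counts, the level used as a floor, corresponded to 0.110 to 0.163 CPM. A single library stood apart, the Input of cKO mouse 1. Its rank correlation with the other Input libraries was 0.965 to 0.969, while other pairs of Input libraries reached 0.989. Its summed CPM over 76 cytosolic ribosomal protein genes was 14307, against 6309 to 6706 in the other 5 Input libraries, and over 50 nuclear-encoded respiratory chain subunits it was 14750, against 8280 to 8734. Red blood cell markers summed to 766 CPM in it and to 144 to 261 in the others, and rows named as ribosomal RNA took 2.43% of its counts against 0.799% to 1.21%. The IP of cKO mouse 2 held 2.49% of such counts against 0.324% to 0.801% in the other IP libraries. Because that Input enters every interaction, results are given with it (12 libraries) and without it (11 libraries, keeping the IP of that mouse). The part of RNA quality or dissection in these values was not tested.

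**Figure D1:**
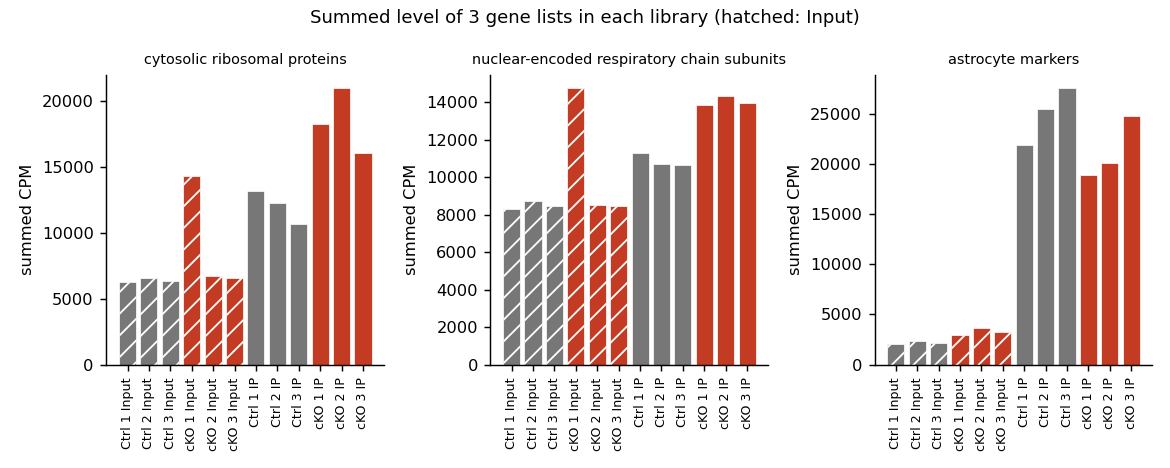
Bars of the summed CPM of 3 gene lists in each of the 12 libraries, Ctrl in grey, cKO in red, and Input hatched. The Input of cKO mouse 1 reaches 14307 for ribosomal proteins and 14750 for respiratory chain subunits, above the other 5 Input libraries, while the astrocyte markers of all 3 cKO Inputs lie above those of the Ctrl Inputs.

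With all 12 libraries, the interaction was called for 15 of 25768 genes, 10 higher (0.0388%) and 5 lower (0.0194%), and 2252 genes had an unadjusted p under 0.05. The knockout effect itself was called for many more genes in IP, 920 higher (3.57%) and 764 lower (2.96%), than in Input, with 121 higher (0.47%) and 6 lower (0.0233%). A gene called in IP and not in Input was therefore seldom shown to differ between the fractions. Of the genes called in IP, 1591 were not called in Input or in the interaction, and for 628 of these the 95% interval of the interaction lay within 1 log2 unit of 0. These genes could be placed neither as particular to astrocyte ribosomes nor as changes of the whole tissue. The median over all genes tested was -0.03 for the interaction, -0.02 for the IP effect and 0.01 for the Input effect.

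**Figure D2:**
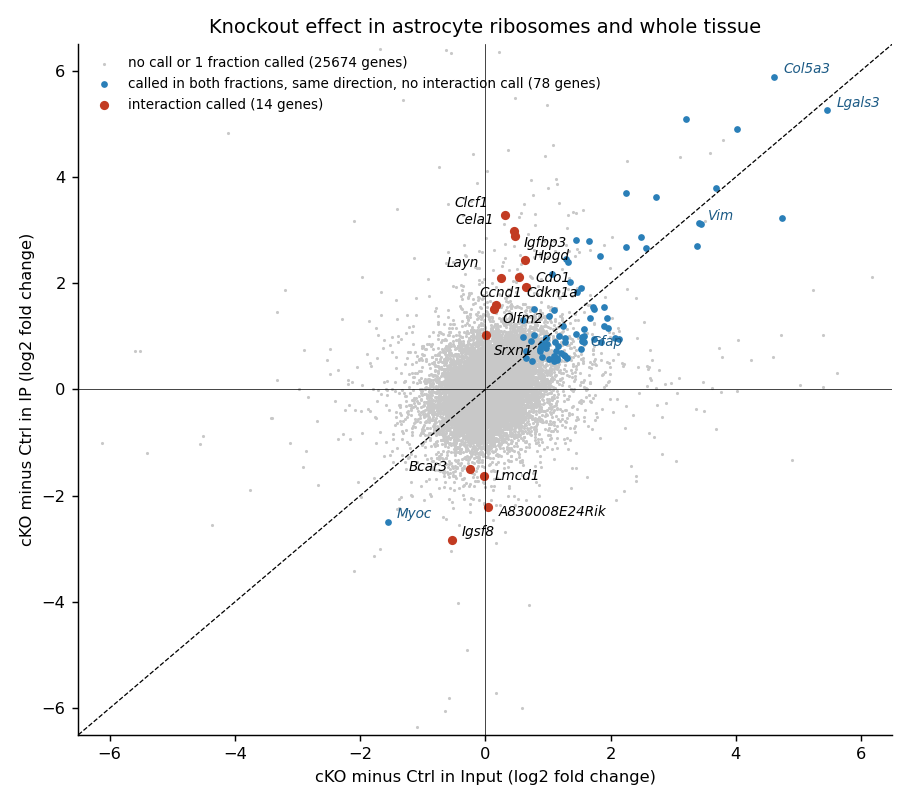
Log2 difference of cKO minus Ctrl in IP (vertical) against that in Input (horizontal) for the genes tested with 12 libraries, with 14 genes called in the interaction in red, 78 called the same way in both fractions in blue, the others in grey and a dashed diagonal of equal effects. Clcf1 lies at 3.29 in IP and 0.31 in Input, and 17 genes fall outside the axes.

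The 15 genes called in the interaction were all called in IP as well, where 3.57% of all genes tested were called higher and 2.96% lower. The interaction contains the IP effect, so these calls share their values. Of the 15, 1 was also called in Input, and the 14 described here were not. The IP to Input ratios of cKO and Ctrl mice were without overlap in all 15, as they were in 15.1% of all genes tested. In IP relative to Input, 12 of the 15 were higher on average and 1, Olfm2, was lower, against 9249 and 9411 of the 25768 genes tested. That average covers both genotypes, so a rise in cKO IP itself adds to it. The count thus does not show that these genes were enriched in IP in Ctrl mice. With the mouse as a block, 6 genes were called (4 higher and 2 lower), and 3 of them, Igfbp3 and Cela1 included, were among the 15. The other 3 were Tnfrsf12a, Cdsn and Sult1a1. Without the Input of cKO mouse 1 all 15 kept their call, also with the block once that mouse was left out entirely.

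Of the genes with a negative interaction, Igsf8, which encodes an immunoglobulin-domain membrane protein, had a value of -2.30 (SE 0.32, adjusted p = 0.0254, with the block 0.0657). Its annotated span overlaps a gene on the opposite strand and the strand setting of the counting is not given in the sources used here, so reads of both genes cannot be told apart and nothing further is drawn from it.

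Another 3 genes with a negative interaction, 1 noncoding and 2 protein-coding, fell in cKO IP while Input stayed close to level. The long noncoding RNA A830008E24Rik stood at 11.1, 7.90 and 10.8 CPM in Ctrl IP and at 2.13, 2.51 and 1.79 in cKO IP. In Input it was 0.464 to 0.566 in Ctrl and 0.530 to 0.553 in cKO, so the range of one genotype held that of the other. The interaction was -2.25 (SE 0.35, adjusted p = 0.0365, with the block 0.106).

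Lmcd1 encodes a LIM-domain protein that restrains GATA factors. It stood at 25.5, 30.1 and 24.7 CPM in Ctrl IP and at 8.87, 9.09 and 7.92 in cKO IP, with Input values from 4.34 to 6.45 that overlapped between genotypes. The interaction was -1.61 (SE 0.23, adjusted p = 0.0254, with the block 0.0657). Bcar3, an adaptor of Cas-family signaling at focal adhesions, stood at 53.8, 51.7 and 58.5 CPM in Ctrl IP and at 18.3, 17.2 and 22.6 in cKO IP. Its Input values, 13.9 to 15.1 in Ctrl and 11.7 to 12.5 in cKO, did not overlap either, but the step was small and not called. The interaction was -1.25 (SE 0.18, adjusted p = 0.0254, with the block 0.112).

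Among the 10 genes with a positive interaction, Igfbp3, Cela1 and Clcf1 encode secreted proteins. Igfbp3, which binds insulin-like growth factors outside the cell, stood at 5.04, 4.12 and 5.74 CPM in Ctrl IP and at 26, 40.2 and 44.0 in cKO IP. Its Input values were 9.16, 7.91 and 9.92 in Ctrl and 12.9, 12.3 and 12.2 in cKO. In Ctrl mice Igfbp3 was thus lower in IP than in Input, and in cKO mice it was higher. The interaction was 2.42 (SE 0.27, adjusted p = 0.00504, with the block 0.0241).

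Cela1, an elastase-type serine protease, behaved in the same manner. It stood at 2.90, 2.68 and 3.05 CPM in Ctrl IP and at 18.9, 30.1 and 19.3 in cKO IP, and in Input at 3.76, 3.23 and 4.73 against 6.45, 5.49 and 4.13, with overlap. The interaction was 2.53 (SE 0.32, adjusted p = 0.0144, with the block 0.0252). Clcf1, a cytokine of the interleukin-6 family that signals through gp130, was low throughout. It stood at 0.301, 0.416 and 0.742 CPM in Ctrl IP and at 4.18, 5.15 and 5.01 in cKO IP, while Input ran from 0.668 to 1.41 with overlap. The interaction was 2.98 (SE 0.48, adjusted p = 0.0467, with the block 0.130).

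A pair of cell cycle regulators was called. Cdkn1a, which encodes the cyclin-dependent kinase inhibitor p21, stood at 30.04, 31.2 and 29.1 CPM in Ctrl IP and at 129, 135 and 125 in cKO IP. Its Input values were 34.7, 30.8 and 21 in Ctrl and 45.4, 44.2 and 36.2 in cKO. The groups overlapped in neither fraction, and the difference was larger in IP, with an interaction of 1.57 (SE 0.23, adjusted p = 0.0254, with the block 0.0807). Ccnd1, the cyclin D1 of the G1 phase, stood at 30.4, 26.1 and 27.8 CPM in Ctrl IP and at 76.3, 79.7 and 84.0 in cKO IP, with Input from 29.0 to 44.7 in overlapping ranges. Its interaction was 1.37 (SE 0.22, adjusted p = 0.0467, with the block 0.112).

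Enzymes of redox and lipid metabolism made up 3 more. Srxn1, sulfiredoxin, which reactivates oxidized peroxiredoxins, stood at 70.9, 71.6 and 75.7 CPM in Ctrl IP and at 147, 152 and 142 in cKO IP. In Input it was 89.5 to 97.1 in Ctrl and 86.0 to 103 in cKO, so no step was seen there, and the interaction was 1.00 (SE 0.16, adjusted p = 0.0407, with the block 0.156). Cdo1, cysteine dioxygenase, which commits cysteine to breakdown, stood at 79.2, 64.0 and 74.1 CPM in Ctrl IP and at 287, 267 and 271 in cKO IP. Cdo1 also differed without overlap in Input, at 32.3, 32.4 and 34.1 against 61.1, 44.7 and 48.9, where the adjusted p was 0.0555. Its interaction was 1.28 (SE 0.19, adjusted p = 0.0282, with the block 0.0971).

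Hpgd, the dehydrogenase that inactivates prostaglandins, stood at 3.16, 3.66 and 2.62 CPM in Ctrl IP and at 15.4, 18.9 and 16.5 in cKO IP. In Input it was 3.63, 2.84 and 2.62 against 5.25, 4.30 and 4.63, and the interaction was 1.79 (SE 0.26, adjusted p = 0.0254, with the block 0.0971). The last pair were a membrane and an extracellular protein. Layn, the hyaluronan receptor layilin, stood at 1.73, 1.96 and 1.60 CPM in Ctrl IP and at 6.83, 9.23 and 6.72 in cKO IP, with overlapping Input values of 1.60 to 2.47 and an interaction of 1.85 (SE 0.30, adjusted p = 0.0484, with the block 0.116).

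Olfm2, an olfactomedin-domain protein, stood at 25.2, 28.7 and 30.7 CPM in Ctrl IP and at 78.5, 78.4 and 98.5 in cKO IP. Its Input values were 78.8, 112 and 78.7 in Ctrl and 102, 109 and 91.1 in cKO. Olfm2 was the gene of the 15 that was lower in IP than in Input on average, by -0.96 on the log2 scale, and the cKO IP values came up to about the Input level. The interaction was 1.43 (SE 0.23, adjusted p = 0.0407, with the block 0.124).

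**Figure D3:**
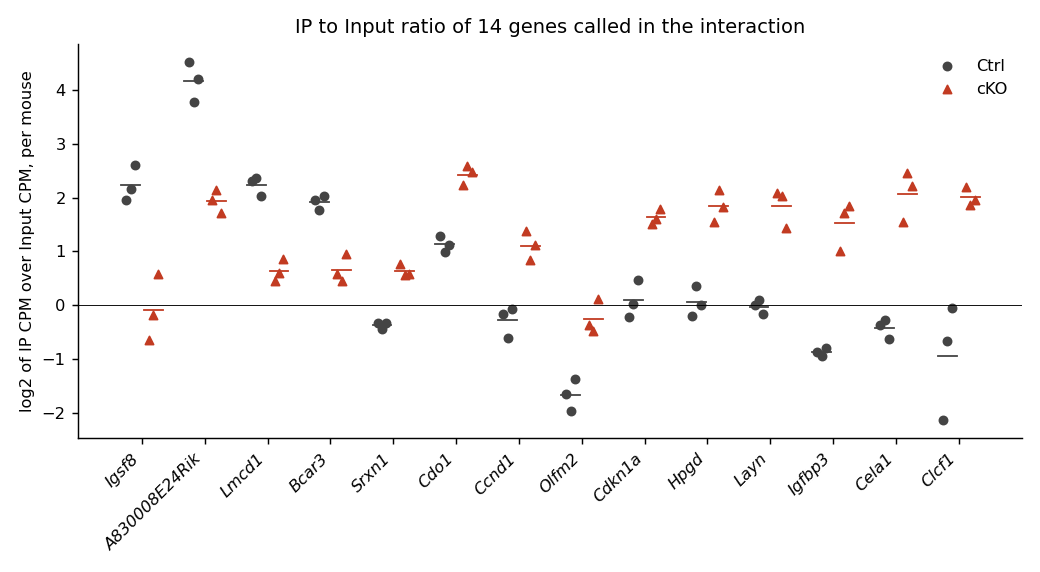
Log2 ratio of IP to Input CPM in each mouse for 14 genes called in the interaction with 12 libraries, with Ctrl as grey circles, cKO as red triangles and a short line at each mean. In each gene the cKO and Ctrl mice do not overlap, from Igsf8 with an interaction of -2.30 to Clcf1 with 2.98.

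Leaving out the Input of cKO mouse 1 raised the number of calls. With 11 libraries, the interaction was called for 246 of 26449 genes higher (0.93%) and 186 lower (0.703%). The IP effect was then called for 2812 genes higher (10.6%) and 2351 lower (8.89%), although no IP library had changed, since the spread is estimated over both fractions. The Input effect was called for 162 higher (0.612%) and 8 lower (0.0302%). With the mouse as a block and cKO mouse 1 left out of both fractions, 102 genes were called higher and 70 lower, and 137 of the 432 calls made without the block were among them. Of the 246 higher genes 241 were called in IP and 160 were enriched in IP on average. Of the 186 lower genes 157 were called in IP and 166 were enriched. That average comes from the fit of 12 libraries, where 9249 of 25768 genes were enriched. It covers both genotypes, so a rise in cKO IP adds to it and a fall takes from it. These counts are thus partly set by how the genes were chosen. Of the 26449 genes tested, 1 was called in opposite directions in IP and Input.

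Genes called higher in both of these fits, with non-overlapping ratios and a mean log2 CPM of at least 1, numbered 52. Tnfrsf12a, the receptor of the cytokine TWEAK, stood at 1.09, 1.59 and 0.625 CPM in Ctrl IP and at 10.2, 12.2 and 10.8 in cKO IP, with an interaction of 2.87 (adjusted p = 0.0146, with the block 0.00417). Anxa3, a calcium-dependent membrane-binding annexin, stood at 2.11, 2.00 and 1.17 against 9.51, 21.9 and 13.7 in IP, with an interaction of 2.48 (adjusted p = 0.0221, with the block 0.00873). Cdsn, an adhesive protein of cornified epithelium, stood at 0.791, 0.604 and 0.508 against 4.44, 15.5 and 9.36, with 2.92 (adjusted p = 0.0297, with the block 0.00235). In each of these genes the Input value of every cKO mouse lay under the IP value of the same mouse.

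The small heat shock protein gene Hspb1 was called with an interaction of 3.10 (adjusted p = 0.0221, with the block 0.0114). Its IP values were 1.36, 0.642 and 1.29 CPM in Ctrl and 8.45, 21.1 and 12.4 in cKO. Hsp25-ps1 and Gm9817, also among the 10, overlap each other on chromosome 13 and are near copies of Hspb1, so these 3 calls may count the same reads and their split is uncertain. Gm27200 and Ppp2r2cos, also among the 10, lie antisense to Prkcz and Ppp2r2c and cannot be told apart from them without strand. Their positive interaction came from lower cKO Input, with differences of -4.91 and -2.53 with 11 libraries. In IP their differences were 0.14 and 0.18 and not called. Gm27200 stood at 2.71 CPM in the Input of cKO mouse 1 and at 0.0426 and 0.212 in mice 2 and 3. With 12 libraries its interaction had an adjusted p of 0.535. Cela1 and Igfbp3 completed the 10.

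Genes called lower by the same criteria numbered 48. Besides Igsf8, A830008E24Rik and Lmcd1, the 10 largest included Sult1a1, 9330121J05Rik, Rhpn2, Slc39a12, Gm973 and Ptprg. Sult1a1, a sulfotransferase for phenols and catechols, stood at 74.4, 36 and 77.4 CPM in Ctrl IP and at 13.5, 9.05 and 9.32 in cKO IP, with an interaction of -1.78 (adjusted p = 0.0449, with the block 0.00873). Slc39a12, a zinc importer, stood at 104, 139 and 151 against 60.6, 65.8 and 91.0 in IP and at 5.61, 8.02 and 8.59 against 8.05, 9.45 and 10.3 in Input, with an interaction of -1.28 (adjusted p = 0.0384, with the block 0.0210). Both were enriched in IP, and the fall of Slc39a12 in IP stood beside Input values that were not lower in cKO.

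Ptprg, a receptor tyrosine phosphatase, stood at 45.8, 41.0 and 38.2 CPM in Ctrl IP and at 19.1, 15.7 and 19.3 in cKO IP, with an interaction of -1.26 (adjusted p = 0.00495, with the block 0.0283). Rhpn2 stood at 9.49, 10.5 and 8.16 against 3.50, 3.76 and 3.38 in IP, with -1.32 (adjusted p = 0.0186, with the block 0.0356). Neither gene was called in Input, with differences of 0.05 for Ptprg and -0.09 for Rhpn2, both at an adjusted p of 1.00. Gm973 had an interaction of -1.26 (adjusted p = 0.0124, with the block 0.0465). 9330121J05Rik lies antisense to Arhgef26 and its reads cannot be told apart from that gene without strand.

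A gene could also change in both fractions and more in astrocyte ribosomes. With 12 libraries this held for 1 gene, and with 11 for 6, of which Cdo1, Pea15a, Gatm, Tagln2 and Cox7a1 were higher in cKO. Gatm, which makes the creatine precursor guanidinoacetate, stood at 111, 108 and 90.3 CPM in Ctrl IP and at 289, 317 and 273 in cKO IP. In Input it stood at 38.7, 36 and 38.9 in Ctrl and at 61.5 and 64.3 in cKO mice 2 and 3, and the interaction was 0.77 (adjusted p = 0.0245, with the block 0.0711). Cox7a1, a subunit isoform of cytochrome c oxidase, stood at 3.20, 3.17 and 3.24 against 19.8, 18.2 and 21.3 in IP, with an interaction of 1.56 (adjusted p = 0.0118, with the block 0.0401). Its Input of cKO mouse 1, at 4.36, lay far from the 1.45 and 1.80 of the other cKO mice, and with 12 libraries its interaction was 0.95 (adjusted p = 0.598).

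Pea15a, a phosphoprotein abundant in astrocytes, stood at 1295, 1314 and 1272 CPM in Ctrl IP and at 2906, 3332 and 3406 in cKO IP, with an interaction of 0.67 (adjusted p = 0.0282, with the block 0.0518).

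Knockout changes seen in whole tissue as well as in astrocyte ribosomes were a smaller group. With 12 libraries, 78 genes were called the same way in IP and in Input with no interaction call, 77 of them higher and 1 lower. Their median log2 difference was 1.01 in IP and 1.34 in Input, and 66 kept this class with 11 libraries. On average 76 of the 78 were enriched in IP, against 9249 of the 25768 genes tested. As Input holds astrocyte RNA too, a change in astrocytes alone cannot be told apart here from one that other cells shared. For 29 of the 78 the 95% interval of the interaction lay within 1 log2 unit of 0. For the others the interval reached beyond a log2 unit, so the missed call does not show equal change.

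The largest of these, by the smaller of both differences, were Lgals3, Col5a3, Syt15, S100a4, Gpnmb and Vim. Lgals3, galectin-3, a sugar-binding lectin found in reactive glia, stood at 1.81, 2.30 and 1.29 CPM in Ctrl IP and at 45.3, 98.7 and 62.9 in cKO IP. In Input it stood at 0.127, 0.223 and 0.103 in Ctrl and at 6.23, 9.11 and 4.91 in cKO. Ctrl Input was thus close to the floor of 3 counts, and the interaction was -0.21 with a 95% interval from -1.56 to 1.14. Col5a3, a fibrillar collagen chain, stood at 0.753, 0.416 and 0.234 in Ctrl IP and at 32.6, 20.6 and 30.6 in cKO IP, and its Ctrl Input was also near the floor. Its interaction was 1.27 with an interval from -0.14 to 2.68.

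Syt15, a synaptotagmin-family membrane protein, stood at 0.339, 0.453 and 0.430 CPM in Ctrl IP and at 9.39, 14.3 and 13.2 in cKO IP, and at 1.42, 2.55 and 1.77 in cKO Input, with an interaction of 0.89 and an interval from -0.79 to 2.57. S100a4, a calcium-binding protein, stood at 7.11, 7.37 and 6.37 in Ctrl IP and at 53.7, 159.6 and 74.1 in cKO IP, and at 0.549, 0.501 and 0.360 against 5.74, 8.69 and 4.10 in Input. Its differences, 3.78 in IP and 3.68 in Input, gave an interaction of 0.10 with an interval from -1.53 to 1.73. The cKO mice differed widely among themselves in S100a4, with mouse 2 highest in both fractions.

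Vim, the intermediate filament vimentin, was also highest in cKO mouse 2 in both fractions. It stood at 124, 121 and 127 CPM in Ctrl IP and at 551, 1727 and 958 in cKO IP, and at 13.3, 13.6 and 10.8 against 90.9, 214 and 94.6 in Input. The log2 differences were 3.12 in IP (adjusted p = 0.000343) and 3.40 in Input (adjusted p = 0.00113), and the interval of the interaction of Vim ran from -1.38 to 0.81. Gpnmb, a transmembrane glycoprotein of lysosomes and phagocytes, stood at 1.20, 1.44 and 1.21 in Ctrl IP and at 25.8, 58.4 and 47.9 in cKO IP, and at 0.802, 0.779 and 0.977 against 3.20, 12 and 8.27 in Input. Gpnmb came nearest to an interaction of the 6, with 1.90 (adjusted p = 0.379, with the block 0.0999, and with 11 libraries and the block 0.0251). In Lgals3 and Gpnmb too, cKO mouse 2 was highest in both fractions. The microglia markers summed to 269 CPM in the IP of that mouse, against 132 to 167 in the other IP libraries. The part of microglial RNA in these genes was not tested.

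The 1 gene lower in both fractions was Myoc, myocilin, a secreted olfactomedin-domain glycoprotein. It stood at 31.3, 37.6 and 35.4 CPM in Ctrl IP and at 5.76, 5.20 and 7.61 in cKO IP. In Input it stood at 3.33, 3.01 and 2.06 in Ctrl and at 0.845, 1.28 and 0.742 in cKO, so the groups overlapped in neither fraction. The differences were -2.49 in IP (adjusted p = 1.26e-05) and -1.56 in Input (adjusted p = 0.0135), with an interaction of -0.92 and an interval from -1.64 to -0.21 (adjusted p = 0.416).

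**Figure D4:**
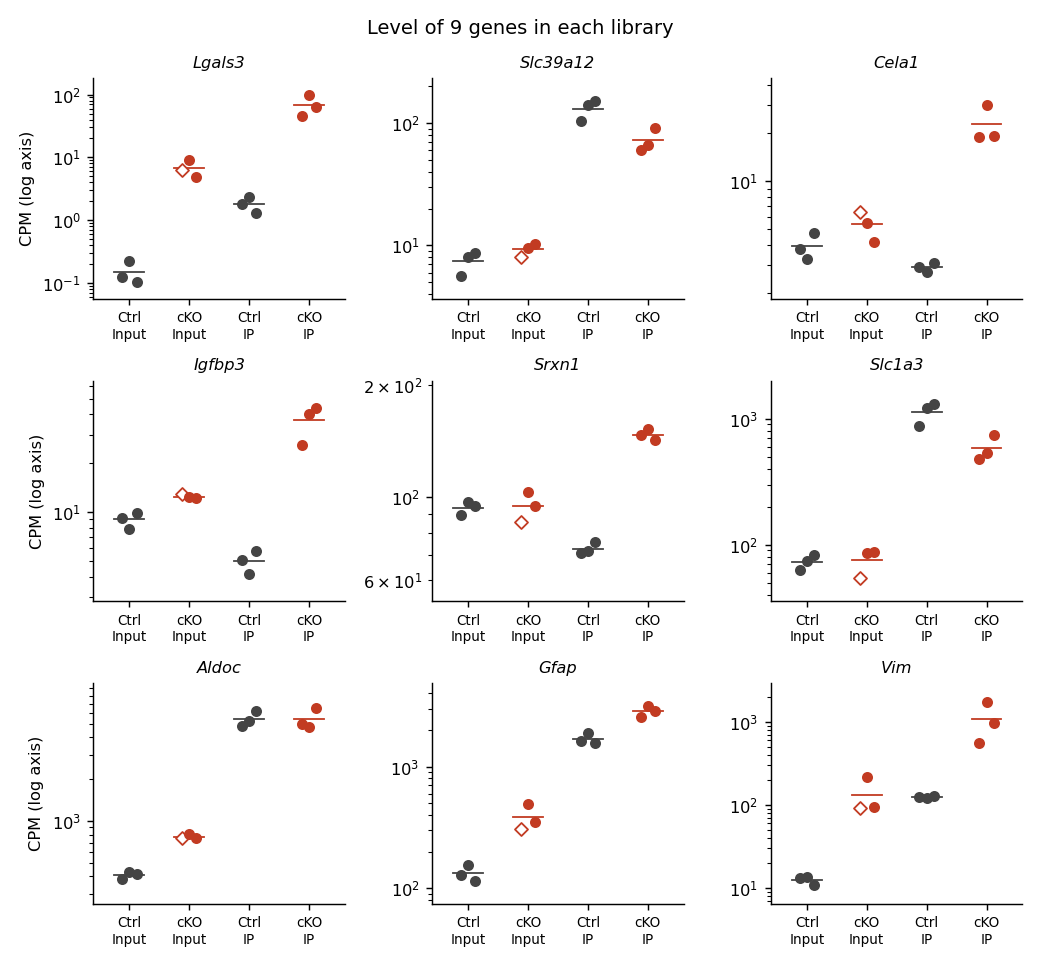
CPM on a log axis of 9 genes in each library, Ctrl in grey and cKO in red, with a line at each mean and an open diamond for the Input of cKO mouse 1. Vim is higher in cKO in both fractions (13.3, 13.6 and 10.8 against 90.9, 214 and 94.6 CPM in Input), Aldoc is higher in cKO Input while its IP values overlap, and Cela1 and Srxn1 overlap in Input and not in IP.

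Changes larger in Input than in IP were not called with 12 libraries: edgeR's quasi-likelihood test gave 0 genes with an interaction against an Input call, while 445 genes met that pattern at unadjusted p under 0.05, and DESeq2 gave 38 genes. No gene was called in opposite directions in the fractions, and 63 had that pattern at unadjusted p under 0.05. A further 48 genes were called in Input alone without an interaction call, 44 of them higher. With 11 libraries 27 genes were larger in Input, 23 higher and 4 lower in cKO. Of the 23, 22 were enriched in IP with 12 libraries, as were 9249 of the 25768 genes tested. These 22 were thus higher in IP than in Input and rose more in the tissue than in the purified ribosomes.

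Gfap, the filament protein that names astrocytes and whose promoter drives Cre here, was among them. It stood at 129, 154 and 115 CPM in Ctrl Input and at 304, 493 and 350.5 in cKO Input, and at 1612, 1899 and 1574 in Ctrl IP and 2558, 3147 and 2875 in cKO IP. The genotypes overlapped in neither fraction. The log2 difference was 1.53 in Input (SE 0.18, adjusted p = 0.00113) and 0.75 in IP (SE 0.18, adjusted p = 0.0224). The interaction of Gfap was -0.77 (SE 0.25, adjusted p = 0.333, with the block 0.283) with 12 libraries and -0.92 (adjusted p = 0.0449, with the block 0.0502) with 11.

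The glutathione S-transferases Gstm1 and Gstm3, which conjugate glutathione to electrophiles, had the same form. Gstm1 stood at 55.5, 53.3 and 53.1 CPM in Ctrl Input and at 184, 199 and 158 in cKO Input, and at 876, 879 and 1003 against 1686, 1878 and 1778 in IP. The interaction of Gstm1 was -0.77 (adjusted p = 0.0232, with the block 0.0638) with 11 libraries. Gstm3 stood at 2.41, 1.67 and 2.57 against 8.14, 8.47 and 7.45 in Input and at 42.8, 39.2 and 44.8 against 76.3, 84.8 and 75.4 in IP, with an interaction of -0.93 (adjusted p = 0.0315, with the block 0.0542). Gstm2-ps1, a processed pseudogene on chromosome 5, was called too (adjusted p = 0.0245, with the block 0.0588), so none of the 3 kept its call with the block. Genes of this family and the pseudogene are alike in sequence, so the split of reads among the 3 is uncertain.

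Aldoc, the aldolase isoform of astrocytes, was called in Input and not in IP. It stood at 382, 430.5 and 416 CPM in Ctrl Input and at 759.9, 804 and 761 in cKO Input, and at 4829.9, 5214 and 6221 against 5031, 4742 and 6529.7 in IP. The IP difference of Aldoc was 0.00 (SE 0.14) and the Input difference 0.92 (SE 0.14, adjusted p = 0.00817), and the interaction was -0.94 (adjusted p = 0.0255, with the block 0.0568) with 11 libraries. Ccdc141, a coiled-coil protein, had Input values of 2.70, 2.12 and 1.85 in Ctrl and 5.49 and 4.56 in cKO mice 2 and 3 beside overlapping IP values, with an interaction of -1.18 (adjusted p = 0.0238, with the block 0.0352). Its Input of cKO mouse 1 stood at 2.71, next to the highest Ctrl value. Gm43109 was also called (adjusted p = 0.0346, with the block 0.0706), but lies antisense to and overlaps Vcam1.

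A gene called in opposite directions was found only with 11 libraries. Arhgef26, a guanine nucleotide exchange factor, stood at 162, 166 and 168 CPM in Ctrl IP and at 109, 107 and 128 in cKO IP. In Input it stood at 16.0, 15.3 and 16.5 in Ctrl and at 22.9 and 24.3 in cKO mice 2 and 3, with 15.8 in cKO mouse 1. The interaction of Arhgef26 was -1.11 (adjusted p = 0.00450, with the block 0.0188), from -0.53 in IP (adjusted p = 0.00101) and 0.58 in Input (adjusted p = 0.0215). With 12 libraries its Input difference was 0.40 (adjusted p = 0.533).

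Among the 16 astrocyte markers the interaction lay to the same side while the IP and Input effects took different forms. None was called in the interaction with 12 libraries. All 16 interaction values lay below 0, as did 13913 of the 25768 genes tested, with a median of -0.82 against -0.03 for all genes. With 11 libraries 6 were called lower, Slc1a2, Slc1a3, Aldoc, Gfap, Glul and Acsbg1, against 0.703% of all genes, with a list median of -0.93. The median IP effect was -0.34 and the median Input effect 0.59 with 12 libraries. There 1 marker was called higher and 3 lower in IP, against 3.57% and 2.96% of all genes, and 2 higher in Input, against 0.47%. Summed over the 16, Ctrl Input ran from 2048 to 2338 CPM and cKO Input from 2945 to 3673, without overlap, while Ctrl IP ran from 21917 to 27591 and cKO IP from 18925 to 24813, with overlap. In RNA from whole tissue, more astrocytes and more RNA per astrocyte cannot be told apart, nor can a change in the share of tagged cells be told apart from a change of ribosome loading in IP.

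Acsbg1, an acyl-CoA synthetase of astrocytes, stood at 65.8, 71.9 and 59.0 CPM in Ctrl Input and at 92.0, 127 and 106 in cKO Input, with overlapping IP values from 554 to 778 and an interaction of -1.02 (adjusted p = 0.0221, with the block 0.0754) with 11 libraries. Slc1a3, the glutamate transporter GLAST, had another form, a fall in IP beside overlapping Input values. It stood at 879, 1216 and 1307 in Ctrl IP and at 482, 532 and 742 in cKO IP, and at 62.8, 73.8 and 83.0 against 54.3, 85.8 and 88.3 in Input. The IP difference of Slc1a3 was -0.95 (adjusted p = 0.0200), and the interaction was -1.21 (adjusted p = 0.0304, with the block 0.0309) with 11 libraries.

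Among the 16 potassium, water and glutamate handling genes, 5 fell in IP with 12 libraries, against 2.96% of all genes tested, and none was called in Input or in the interaction. Their median interaction was -0.65. With 11 libraries, Slc1a2, Slc1a3 and Glul, also counted among the astrocyte markers, were called lower in the interaction, against 0.703% of all genes. In IP 8 members were lower and 1 higher, against 8.89% and 10.6% of all genes in that fit. Their median interaction was then -0.84. Glul, glutamine synthetase, stood at 7659, 7928 and 8970.4 CPM in Ctrl IP and at 5251, 5185 and 6167 in cKO IP, and at 725, 758 and 719 against 853, 986 and 841 in Input. The groups overlapped in neither fraction and lay in opposite directions, although the Input difference of 0.32 was not called (adjusted p = 0.485), and the interaction was -0.88 (adjusted p = 0.0137, with the block 0.0552).

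Slc1a2, the main astrocyte glutamate transporter GLT-1, stood at 1549, 2232 and 2074 CPM in Ctrl IP and at 1032, 1104 and 1415 in cKO IP, with an interaction of -0.89 (adjusted p = 0.0497, with the block 0.0570) with 11 libraries. Its Input of cKO mouse 1, at 161, lay below the 340.2 and 339 of the other cKO mice. Aqp4, the water channel of astrocyte endfeet, stood at 11.2, 16.4 and 15.1 in Ctrl Input and at 18.1, 44.6 and 39.8 in cKO Input, with an interaction of -1.11 (adjusted p = 0.0524, with the block 0.0437). Kcnj10, the inward rectifier Kir4.1, was called higher in both fractions with 11 libraries, by 0.68 in IP (adjusted p = 0.0265) and 1.36 in Input (adjusted p = 0.00961), with an interaction of -0.68 (adjusted p = 0.272), while with 12 libraries it was called in neither fraction.

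Among 15 astrocyte synapse genes the median was -0.32. With 11 libraries 3 were called lower, Sparcl1, Mertk and Hepacam, against 0.703% of all genes in that fit. Sparcl1, the synaptogenic protein hevin, stood at 1344, 1825 and 1987 CPM in Ctrl IP and at 880.0, 962 and 1248 in cKO IP beside 241, 303 and 321 against 316, 391 and 354 in Input, with an interaction of -1.11 (adjusted p = 0.0331, with the block 0.0372). Sparcl1 was also the 1 member called in the interaction with 11 libraries among 20 extracellular matrix genes, whose median was -0.14 with 12 and -0.31 with 11.

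The reactive astrocyte genes that were called in IP or Input were all higher in cKO. Of 12 pan-reactive genes, 7 rose in IP and 3 in Input with 12 libraries, against 3.57% and 0.47% of all genes tested. The medians were 1.62 and 0.89, and none was called in the interaction, whose median was 0.02 with 12 libraries and -0.01 with 11. With 11 libraries Hspb1 was called higher and Gfap lower, against 0.93% and 0.703% of all genes in that fit. Of 9 astrocytosis genes also assayed by RT-qPCR, 6 rose in IP and 4 in Input, and Clcf1 was called in the interaction. As the study assayed that list in the same mouse model, it is not independent evidence of direction. The median interaction was -0.12 with 12 libraries and -0.47 with 11.

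The integrated stress response is a program in which phosphorylation of the translation factor eIF2α favours synthesis of the transcription factor ATF4, which turns on amino acid and redox genes. Of 29 tested genes of the program, 9 rose in IP and 1 in Input, where 3.57% and 0.47% of all genes tested did, and none was called in the interaction with 12 libraries. Their median interaction was 0.32, with 22 of 29 above 0, against 11855 of all 25768 genes tested. With 11 libraries, Atf5, Chac1, Trib3 and Ddit3 were called higher in the interaction, against 0.93% of all genes, and the list median was 0.39.

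Atf5, a transcription factor whose own translation rises under stress, stood at 28.8, 28.7 and 24.8 CPM in Ctrl IP and at 60.6, 56.3 and 62.5 in cKO IP beside overlapping Input values of 19.1 to 29.8, with an interaction of 1.11 (adjusted p = 0.0221, with the block 0.0328). Chac1, which breaks down glutathione, stood at 3.58, 3.06 and 4.45 against 11.3, 6.23 and 11.9 in IP and at 9.79, 10.9 and 9.92 against 8.99, 8.73 and 9.78 in Input, with 1.54 (adjusted p = 0.0282, with the block 0.0581). Trib3, a pseudokinase, stood at 0.151, 0.0756 and 0.0781 CPM in Ctrl IP, near or under the floor, and at 3.03, 1.21 and 2.48 in cKO IP. Ddit3, the transcription factor CHOP, had the smallest step of the 4, at 19.1, 21.5 and 15.2 against 31.3, 28.6 and 27.1 in IP, with 0.84 (adjusted p = 0.0406, with the block 0.0757).

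Nupr1, a chromatin-associated stress protein, was the member of the program that rose in both fractions. It stood at 27.2, 39.4 and 30.5 CPM in Ctrl IP and at 241, 241 and 226 in cKO IP, and at 4.05, 3.23 and 2.62 against 25, 16.3 and 14.3 in Input. The log2 differences of Nupr1 were 2.87 in IP (adjusted p = 6.11e-06) and 2.48 in Input (adjusted p = 0.000165), with an interaction of 0.39 and an interval from -0.26 to 1.04. Atf3, another transcription factor of the program, stood at 0.301, 0.227 and 0.508 in Ctrl IP and at 1.32, 1.48 and 1.71 in cKO IP beside overlapping Input values, with an interaction of 1.59 (adjusted p = 0.412).

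ATF4 and its partners bind a composite element written TGATGNAA. In RefSeq promoters on GRCm38.p6, taken from 250 bases before to 50 after the start, either strand of that motif was found in 12 of the 24 promoters of the program present in the table and in 391 of 13747 promoters of tested genes (2.84%). The share in the program depends on which genes were put in the list and not on the levels measured here. Of 14 genes called in the interaction with 12 libraries, 10 had a promoter in the table and 0 held the motif. The stretches around the match are shown for the 3 members called in IP whose promoter held one, with the match in capitals, in the reverse orientation of the motif, and 5′ to 3′ on the strand of the gene. They lie at chr2:119351019-119351086 (plus strand, Chac1), chr7:126625543-126625610 (minus strand, Nupr1) and chr1:191183406-191183473 (minus strand, Atf3), and the match began 193, 110 and 110 bases before the start. A match is a description of the letters and not a measured site, and it occurs both in Nupr1, which rose in both fractions, and in Chac1, which rose in IP.
Chac1: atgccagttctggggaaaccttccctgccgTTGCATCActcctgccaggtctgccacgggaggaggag
Nupr1: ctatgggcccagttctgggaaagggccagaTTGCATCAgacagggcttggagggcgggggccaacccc
Atf3: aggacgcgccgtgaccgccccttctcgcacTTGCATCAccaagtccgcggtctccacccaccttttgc

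Among 16 NRF2-type antioxidant genes, which protect against oxidants and electrophiles, 7 rose in IP and 2 in Input with 12 libraries, against 3.57% and 0.47% of all genes tested, and Srxn1 was called in the interaction, with a list median of 0.05, or 0.19 with 11 libraries. With 11 libraries Srxn1 and Gsr were called higher and Gstm1 lower, against 0.93% and 0.703% of all genes, so members of this list moved to either side. Gsr, glutathione reductase, stood at 41.0, 41.0 and 39.0 CPM in Ctrl IP and at 95.1, 86.0 and 74.3 in cKO IP, and its interaction was 1.06 (adjusted p = 0.00577, with the block 0.0251). The antioxidant element TGACNNNGC was present in 6 of 11 promoters of the list (54.5%), in 2 of the 10 of genes called in the interaction (20.0%) and in 2252 of 13747 (16.4%). Here too the share in the list depends on which genes were put in it and not on the levels measured.

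No serine, folate or glycine gene of these lists was called in the interaction with 12 libraries. Of 21 folate and glycine enzymes, 5 rose and 1 fell in IP with 12 libraries, against 3.57% and 2.96% of all genes tested, and the median interaction was 0.02, or 0.10 with 11. With 11 libraries Gatm was called higher and Gldc and Sardh lower, against 0.93% and 0.703% of all genes in that fit. Of 11 serine synthesis and transport genes 1 rose and 1 fell in IP, and with 11 libraries Phgdh was called lower in the interaction. The list median was -0.15.

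Ribosomal protein and respiratory chain genes depended on the Input of cKO mouse 1. Of 76 cytosolic ribosomal proteins, 0 were called in the interaction and 11 rose in IP (3.57% of all genes) with 12 libraries, with a median interaction of 0.06. With 11 libraries these counts were 7 and 74 (0.93% and 10.6% of all genes), with a median of 0.55. The median Input effect went from 0.56 to 0.05 when that library was left out, while the median IP effect stayed at 0.60. Of 50 respiratory chain subunits, 0 were called in the interaction and 1 rose in IP with 12 libraries, and 7 and 35 with 11, with medians of -0.03 and 0.38. In the IP libraries themselves the summed ribosomal protein level was 10709 to 13178 CPM in Ctrl and 16068 to 20992 in cKO, without overlap. The 17 tricarboxylic acid cycle enzymes had a median of 0.05 with 12 libraries and 0.13 with 11, and no interaction call in either fit.

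The cell cycle list of 14 genes held Cdkn1a and Ccnd1 as its 2 interaction calls with 12 and with 11 libraries, where 0.0388% and 0.93% of all genes were called higher. Its median was -0.23 with 12 libraries and 0.03 with 11. Top2a, Mcm5 and Mcm6, used in DNA replication and chromosome separation, fell in IP. No member was called in the interaction, in either fit, among 23 cholesterol synthesis genes (median 0.11 with 12 libraries and 0.10 with 11), 25 lysosome genes (-0.13 and -0.07), 16 immediate early genes (0.17 and 0.16), 15 cortical neuropeptide genes (-0.16 and 0.10) and 18 interferon response genes (-0.17 and -0.25). The median of the neuropeptide genes thus changed sign with the Input of cKO mouse 1.

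Markers of other cells and regions gave no interaction call in either fit. The median interaction with 12 and then with 11 libraries was -0.08 and -0.18 for 14 neuron markers, -0.20 and -0.21 for 12 oligodendrocyte markers, 0.29 and 0.17 for 6 oligodendrocyte precursor markers, -0.20 and -0.07 for 14 endothelial and pericyte markers, -0.24 and -0.15 for 6 meningeal fibroblast markers and -0.32 and -0.37 for 4 choroid plexus markers. It was 0.12 and 0.02 for 7 striatum markers and 0.29 and 0.27 for 7 olfactory bulb markers. The sign turned for 5 red blood cell markers, from -0.09 to 0.80, for 6 hippocampus and dentate markers, from 0.20 to -0.06, and for 14 microglia markers, from 0.04 to -0.05. The summed level of the olfactory bulb markers was 13.7 to 48.9 CPM in Ctrl Input and 12 to 13.8 in cKO Input, with overlap, as Ctrl mouse 2 stood at 13.7. In IP it was 8.07 to 21.5 in Ctrl and 4.88 to 5.37 in cKO, without overlap, and 1 of the 7 markers, Sp8, was called lower there and 0 in Input with 12 libraries. Their part in the results was not tested.

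**Figure D5:**
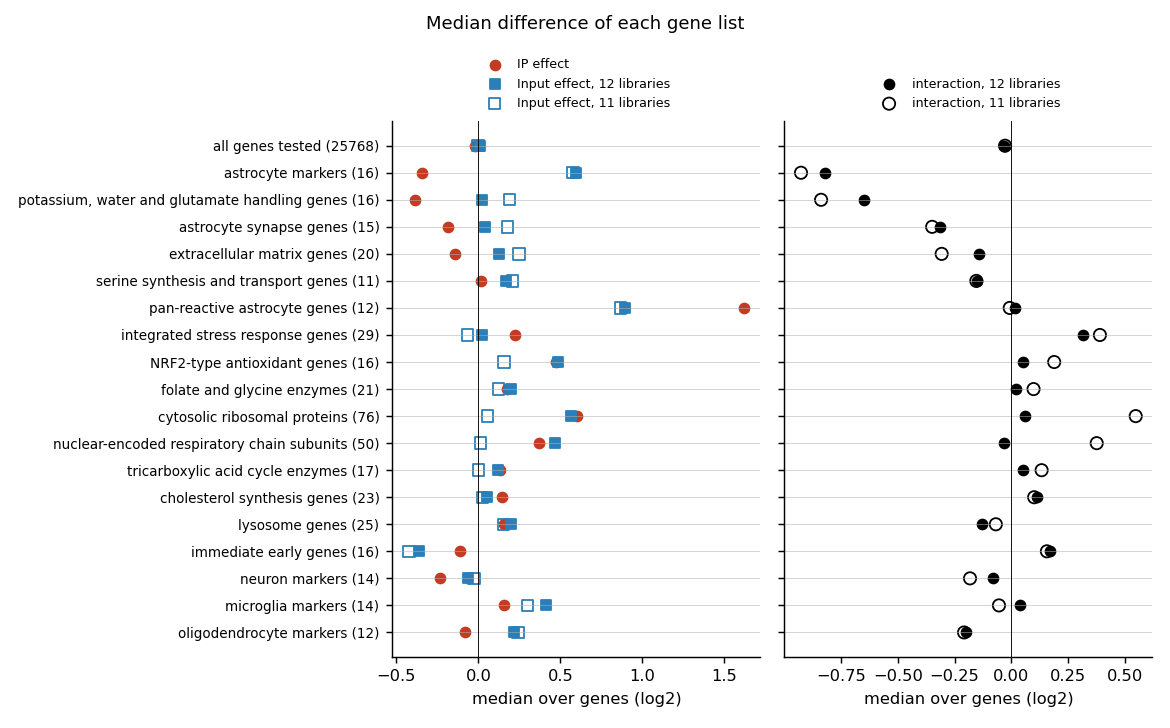
Median over each of 18 gene lists and over all genes of the log2 difference of cKO minus Ctrl in IP (red circles) and Input (blue squares) on the left and of the interaction on the right, filled with 12 libraries and open with 11. Astrocyte markers lie at -0.82 and -0.93 in the interaction, and cytosolic ribosomal proteins go from 0.06 to 0.55 when the Input of cKO mouse 1 is left out.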

How the data were processed

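Cortex RNA of 3 Ctrl and 3 cKO mice was sequenced by the authors as 12 libraries, Input and IP of each mouse, after poly(A) selection. The authors deposited raw read counts per Ensembl gene, made by aligning reads to mm10 with STAR. The counting tool, the strand setting and the annotation are not given in the sources used here. Of 53342 gene identifiers, 53237 were found in the GRCm38 annotation used for names. Some genes, the target of the knockout among them, are not reported here, although they enter the fits and the counts. Groups were taken from the labels of genotype and fraction.

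Counts were tested in edgeR 4.0.16 (R 4.3.3) with TMM factors, filterByExpr (minimum count 10, minimum total 15), a quasi-likelihood fit of 4 groups of genotype by fraction, 2-sided tests and an adjusted p threshold of 0.05, and the steps were tested on simulated data. The same fit without the Input of cKO mouse 1, and all fits that leave that library out, were added after seeing the data. Totals per library were 18433087 to 27242445 counts, and intervals and floors cover counting error or the spread of 3 mice only. A comparison of single values of 3 against 3 mice could not go below p = 0.1 in an exact permutation test, so no such test is given.

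The pairing of IP and Input comes from the design, as both came from 1 animal. Residuals of the own IP and Input correlated at 0.0670, 0.0433 and 0.0752 in Ctrl mice and -0.0359, -0.0638 and 0.0952 in cKO mice. With Inputs of other mice of the same genotype, Ctrl IPs correlated at -0.0522 to -0.00923. The IP of cKO mouse 1 gave 0.00410 to 0.0448, that of mouse 2 -0.137 to 0.148 and that of mouse 3 -0.116 to 0.0617. In cKO mice 1 and 2 the own Input was thus not the closest. The consensus correlation within a mouse in voom was 0.00383.

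The gene lists and the rules were chosen with earlier results of these data known. Genes were named where they were among the 10 largest in each direction of the interaction called without and with the block, with non-overlapping ratios and log2 CPM averaging 1 or more, among the 6 largest in each direction of the other classes, or among up to 4 members of a list with the lowest p. With 12 libraries the rule gave Igfbp3 and Cela1 among the genes described, and the rest of the called genes, and the rule's use with 11 libraries, were added after their values were seen. Cdo1, Gatm, Pea15a, Cox7a1, Tagln2, Nupr1, Atf3, Aldoc and Acsbg1 were also named after their values were seen. Alternatives were a likelihood ratio test, DESeq2 1.42.0, voom in limma 3.58.1, other scalings and filters, the mouse as a block, the fractions fitted apart and leaving out each mouse.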

Additional observations from a re-analysis of the deposited data

Results flagged for a closer look

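In 14 genes the knockout effect differed between IP and Input in a test of the difference itself. The interaction, on the log2 scale, was -2.30 for Igsf8, -2.25 for A830008E24Rik, -1.61 for Lmcd1 and -1.25 for Bcar3. It was 1.00 for Srxn1, 1.28 for Cdo1, 1.37 for Ccnd1, 1.43 for Olfm2, 1.57 for Cdkn1a, 1.79 for Hpgd, 1.85 for Layn, 2.42 for Igfbp3, 2.53 for Cela1 and 2.98 for Clcf1. In each of the 14 the IP to Input ratios of cKO and Ctrl mice did not overlap, which held for 15.1% of all genes tested. Igsf8 overlaps a gene on the opposite strand, and the reads of both cannot be told apart.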

How the results depend on the processing

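The direction of the interaction did not turn in any of the called genes or in Gfap under any alternative. Igfbp3 was called in 18 of 19, Cela1 in 16 and Clcf1 in 8 of 18. The counts moved far more. The likelihood ratio test of edgeR called 93 genes higher and 126 lower in the interaction, 2584 in IP and 261 in Input, with 118 the same way in both fractions and 29 larger in Input. DESeq2 called 99 higher and 185 lower, 2772 in IP, 242 in Input and 38 larger in Input. With no filter beyond 1 count the numbers were 79 higher, 110 lower, 493 in Input, 210 the same way and 37 larger in Input, and with at least 10 counts in every library 1 was larger in Input. RLE factors called 5 higher, as did library size alone, which moved the median IP effect to -0.13 and the median interaction to -0.10 and gave 36.2% of IP calls higher against 54.6%. Voom called 52 in Input and 37 the same way. The cause of these differences was not tested.

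With the mouse as a replicate block, 4 genes were called higher and 2 lower, and 12 of the 15 called genes lost their call. Without the Input of cKO mouse 1, 246 were higher, 186 lower, 5163 called in IP and 27 larger in Input. With the block and no cKO mouse 1 the counts were 102, 70 and 13 larger in Input. DESeq2 without that Input gave 918 higher, 643 lower, 5596 in IP, 285 in Input, 124 the same way and 82 larger in Input. TMM factors within each fraction without it gave 300 higher, 185 lower, 5119 in IP and 27 larger in Input. With the fractions fitted apart, 4782 genes were called in IP, with and without that library, and 26 in Input. Leaving out each mouse in turn gave 0 to 197 higher and 2 to 143 lower, 345 to 4936 in IP, 27 to 190 in Input, 18 to 108 the same way and 0 to 22 larger in Input. The highest of each came without cKO mouse 1 and the lowest number of higher calls, 0, without Ctrl mouse 1. Without any other mouse 2 to 6 genes were higher and 2 to 6 lower. With 3 mice per genotype, and a low Ctrl level in several genes, the sizes of the largest log2 differences are known only roughly.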

Other observations

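Rpl10a, the ribosomal protein that carries the tag, stood at 81.3, 91.0 and 78.6 CPM in Ctrl Input and at 223, 122 and 109 in cKO Input, and at 368, 339.6 and 317 in Ctrl IP and 356, 423 and 422 in cKO IP. Its Input difference was 0.85 (adjusted p = 0.154) and its interaction -0.63 (adjusted p = 0.589), and with 11 libraries these were 0.47 (adjusted p = 0.103) and -0.24 (adjusted p = 0.482). Reads of the tagged and the endogenous transcript cannot be told apart in a count per gene.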
